A study of Arabidopsis thaliana with 12 samples.

Results

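The subject is the response of ozs3 mutant roots to 24 h of cold, read from the 6 arrays of that genotype: 3 of ozs3 roots at 4 °C and 3 of ozs3 roots at 23 °C, out of 12 arrays in the study. Arabidopsis thaliana plants grew in hydroponic culture for 4 weeks at 23 °C under a day of 8 h light and 16 h darkness, and the cold-treated plants then spent 24 h at 4 °C in the same light cycle while the controls stayed at 23 °C. The ozs3 line (overly zinc sensitive 3) is in the Col-0 background, and Col-0, the wild type, was treated in the same way with 3 arrays at 4 °C and 3 at 23 °C. Each array held the labelled RNA of 1 biological replicate of roots, hybridised to the Affymetrix ATH1 design, in which short probes grouped in probe sets report 1 transcript or a few. The labels do not name the gene altered in ozs3, so its level could not check the labels.

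Plants that meet low but non-freezing temperatures switch on cold-regulated genes, many of them through transcription factors of the CBF and DREB kind, and the products protect membranes and proteins during later freezing. At the same time growth slows, cell walls and soluble sugars are remodelled, and the electron transport of mitochondria and the handling of reactive oxygen are adjusted. Most of this knowledge comes from leaves and seedlings. Roots lack the photosynthetic part of the programme and carry their own demands of water and mineral uptake.

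Levels below are log2 intensities as the authors deposited them, and a difference is the mean at 4 °C minus the mean at 23 °C on that scale, with its standard error from limma, so that 1 unit is a 2-fold change. Values of single arrays follow the replicate numbers 1, 2 and 3. A gene is said to have risen or fallen where its limma p, adjusted by Benjamini-Hochberg over all 22746 probe sets, lay under 0.05. A level at or below 5 is called dim, since differences there may be understated. The probe table names 13355 genes, 11808 of them by a locus code alone, and no function is given for those unless the gene table holds an older name.

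Replicate arrays of the same ozs3 group had correlation coefficients between 0.995 and 0.997 across probe sets. The first principal component of the 6 arrays held 86.5% of their variance and separated the temperatures. The second held 5.55% and set replicate 3 at 23 °C, at −16.1, apart from the other control arrays, at 11.9 and 2.7. On it the cold replicates 1, 2 and 3 lay at 19.6, −6.29 and −11.7, so the order of replicates was the same at both temperatures. In replicate 3 at 23 °C 17 named genes stood at least 1 log2 unit above both other arrays of the group, and 16 of these were genes that rose at least 2-fold in the cold. The other 5 ozs3 arrays had between 0 and 6 such genes, and among the Col-0 arrays replicate 3 at 23 °C had 15, 11 of them risen at least 2-fold in ozs3. Of 4 root hair markers 2 fell and none was called higher (1 was with every array shifted to 1 common median, or without ozs3 replicate 3 at 23 °C or 2 at 4 °C or Col-0 replicate 1 or 2 at 4 °C). Their mean level ran from 8.02 to 8.63 over the cold arrays, against 8.66 to 9.21 over the controls. Of 4 markers of endodermis, xylem and uptake 3 fell and none rose, with a median of −1.05. Their mean level ran from 8.65 to 8.83 over the cold arrays, against 9.63 to 9.67 over the controls. The falling markers were AT3G45710 (−1.58 ± 0.14), AT1G61590 (−1.01 ± 0.10) and AT5G61340 (−1.09 ± 0.12). The part of root cell markers in the results was not tested. EXPA7, an expansin of root hairs, stood at 9.55 ± 0.26 at 4 °C and 9.12 ± 0.26 at 23 °C (SD, n = 3 each), and GUT2, a xylan synthesis gene of xylem, at 7.97 ± 0.16 and 8.02 ± 0.10. Of 4 leaf mesophyll markers, the Calvin cycle genes SBPASE and PRK were dim in both groups, RCA was at 6.90 ± 0.11 and 6.99 ± 0.12, and LHCB4.1 fell by 1.299 ± 0.18. The mean level of the 4 ran from 5.54 to 5.74 over the cold arrays, against 5.92 to 6.04 over the controls.

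**Figure D1:**
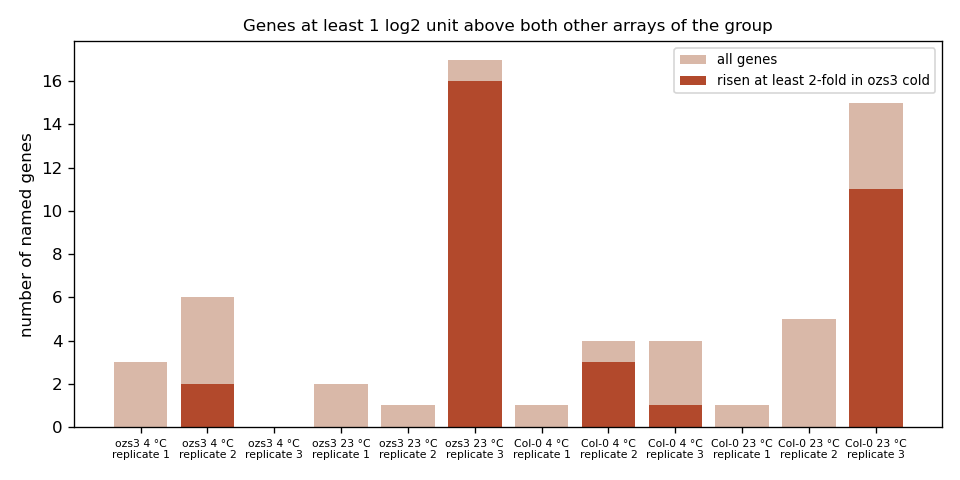
Number of named genes at least 1 log2 unit above both other arrays of the same group, for each of the 12 arrays, with the genes that rose at least 2-fold in ozs3 cold in the darker part of each bar. Replicate 3 of ozs3 at 23 °C stands highest with 17 genes, and replicate 3 of Col-0 at 23 °C follows with 15.

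After 24 h at 4 °C, 3112 of the 13355 named genes had risen in ozs3 roots and 3376 had fallen, which is 23.3% and 25.3%, or 48.6% in all, and 51.1% of all probe sets were called. Most changes were small: 50.6% of the called genes changed by less than 1.5-fold, and 549 rose and 848 fell at least 2-fold (4.11% and 6.35%). The largest changes leaned the other way, with 28 genes up and 5 down by more than 8-fold. In the dim range the balance also differed. Of 4149 genes dim in both groups 597 rose and 124 fell, with a median difference of 0.11, and of the other 9206 genes 2515 rose and 3252 fell, and their median was −0.06. The median over all named genes was 0.05. With every array shifted to 1 common median it was 0.19, and 66.7% of the called named genes were higher, against 48.0% as deposited, so small differences of either sign are to be read against that shift. Without replicate 3 at 23 °C 2667 named genes rose and 3306 fell. Whole roots were measured, so fewer cells of a type and less RNA per cell cannot be told apart. At the edge of the threshold, AT1G03100 lay just inside with a difference of 0.24 ± 0.10 and AT2G17845 just outside with 0.33 ± 0.13.

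**Figure D2:**
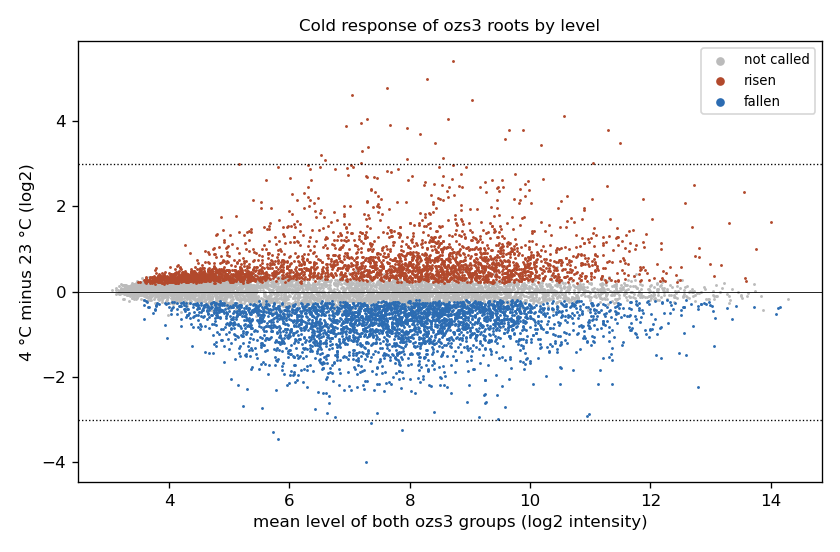
Difference between ozs3 roots at 4 °C and at 23 °C (log2) against the mean level over both groups (log2 intensity) for every named gene, with risen and fallen genes coloured and the uncalled genes in grey. The 28 genes that rose more than 8-fold lie above the dotted line at 3 and the 5 that fell by more than 8-fold below the line at −3.

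The classical cold-regulated genes led the rise. All 6 members of that list rose at least 2-fold, with a median difference of 3.51, and in each of them all cold arrays lay above all control arrays. COR15A, whose product protects chloroplast membranes during freezing, had levels of 11.39, 11.29 and 11.60 in ozs3 roots at 4 °C, against 5.24, 5.23 and 7.60 at 23 °C (difference 5.401 ± 0.46, adjusted p = 3.87e-07). The cold arrays lay close together while replicate 3 at 23 °C stood apart from the other controls, and the difference without it was 6.19. Its neighbour in sequence COR15B was between 9.96 and 10.07 on the cold arrays, against 4.82, 4.65 and 6.26 at 23 °C (difference 4.77 ± 0.31, adjusted p = 4e-08). COR27, which links the cold response with the circadian clock, was at 9.39, 9.46 and 9.20 in ozs3 roots at 4 °C, against 4.38, 4.27 and 5.55 at 23 °C, and its control levels were mostly in the dim range (difference 4.62 ± 0.25). The dehydrin genes LTI30 and COR47, for hydrophilic proteins that stabilise membranes and enzymes during water loss, were bright already at 23 °C. LTI30 stood at 14.68, 14.79 and 14.72 in ozs3 roots at 4 °C, against 12.30, 11.35 and 13.52 at 23 °C (difference 2.34 ± 0.40, adjusted p = 0.000226), and replicate 3 of the controls lay closest to the cold arrays. COR47 stood at 14.80, 14.92 and 14.74 in ozs3 roots at 4 °C, against 13.15, 12.77 and 13.62 at 23 °C (difference 1.64 ± 0.15), and replicate 3 was the highest control. STZ, a zinc finger repressor induced by salt and cold, was at 11.10, 11.29 and 11.14 in ozs3 roots at 4 °C, against 8.30, 8.62 and 9.43 at 23 °C (difference 2.39 ± 0.24, adjusted p = 1.78e-06). Without replicate 3 at 23 °C the median of the list was 3.97.

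**Figure D3:**
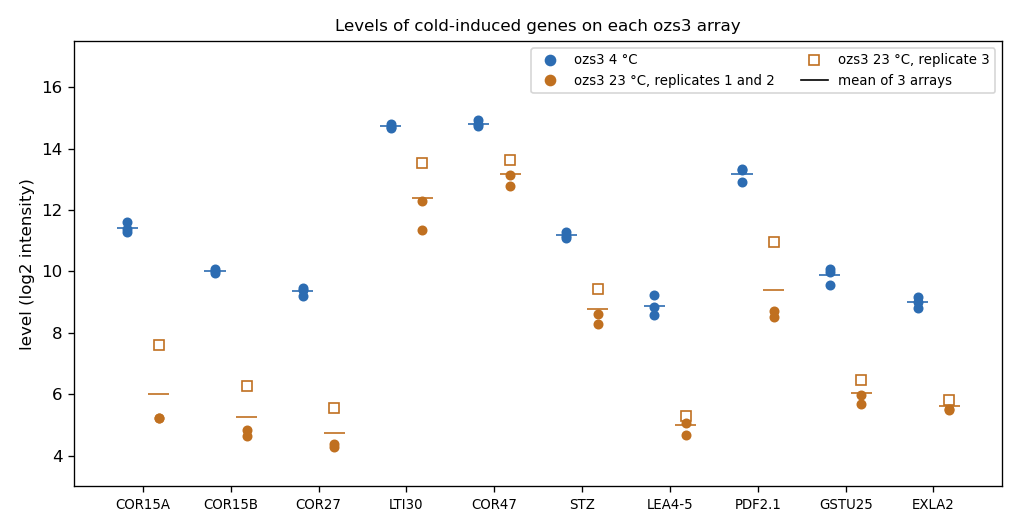
Levels (log2 intensity) of the 6 cold-regulated genes and of LEA4-5, PDF2.1, GSTU25 and EXLA2 on each ozs3 array, with 4 °C left of 23 °C for every gene and replicate 3 at 23 °C drawn as an open square. For all 10 genes the 3 cold arrays lie above the 3 control arrays, and for COR15A the square at 7.60 lies well above the other controls.

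Replicate 3 at 23 °C stood at least 1 unit above both other controls in a limited set of cold-induced genes, and above them by less in many others. In PDF2.1, a plant defensin, the levels were 12.92, 13.34 and 13.29 in ozs3 roots at 4 °C, against 8.70, 8.52 and 10.97 at 23 °C. For AT1G68500 the levels were 11.12, 11.24 and 11.47 in ozs3 roots at 4 °C, against 6.45, 5.23 and 8.69 at 23 °C, for AT4G30650 12.96, 13.42 and 13.33 in ozs3 roots at 4 °C, against 9.38, 9.13 and 10.72 at 23 °C, and for AT3G17130 9.34, 9.10 and 9.09 in ozs3 roots at 4 °C, against 4.84, 4.67 and 6.15 at 23 °C. In each of these replicate 3 was the highest control by more than 1 unit and still lay below every cold array, as it did in all 16 genes of this kind that rose at least 2-fold. Their median rise was 3.78 with the array and 4.34 without it. Over all 549 genes that rose at least 2-fold, replicate 3 was the highest of the 3 controls in 60.5%, replicate 1 in 32.1% and replicate 2 in 7.47%, against 30.9%, 39.9% and 29.2% over all named genes. Its median excess over the other controls was 0.16 in the genes that rose at least 2-fold and −0.03 in those that fell at least 2-fold. In the strongly induced genes AT2G22590 and AT3G55580 replicate 3 was the highest control by less. AT2G22590 was at 9.72, 9.46 and 8.78 in ozs3 roots at 4 °C, against 5.19, 5.10 and 5.52 at 23 °C, and AT3G55580 at 9.65, 9.53 and 9.67 in ozs3 roots at 4 °C, against 5.68, 5.30 and 6.16 at 23 °C, with differences of 4.05 ± 0.21 and 3.903 ± 0.19. What set replicate 3 apart was not tested.

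Genes were grouped in 58 lists by family or pathway: 32 lists had more members up than down, 21 more down than up, and 5 as many. Counts of members are to be read against the 23.3% risen and 25.3% fallen over all named genes. Among the strongest rises of genes with a symbol were several from stress protection and detoxification. LEA4-5, a late embryogenesis abundant protein of drying tissue, was at 9.22, 8.58 and 8.84 in ozs3 roots at 4 °C, against 5.08, 4.66 and 5.30 at 23 °C (difference 3.87 ± 0.21, adjusted p = 8.37e-09). The list of 13 LEA and desiccation genes, which also holds regulators, had 3 up and 5 down (5 up without replicate 1 at 4 °C and 6 with 1 common median). It leaves out the dehydrin genes LTI30 and COR47, counted above with the cold-regulated genes, so its split is not one among LEA proteins alone. Falling members of the list included the regulators EEL, a bZIP factor of seed maturation (−1.85 ± 0.10), DI19, a drought-induced zinc finger gene (−1.49 ± 0.09), and XERICO, a RING-type ubiquitin ligase gene that promotes abscisic acid build-up (−1.39 ± 0.09). The plant defensin and thionin list had 6 of 15 members up and 0 down, and 9 of the 15 were dim in both groups. With 1 common median 12 were up, and with each array left out 4 to 8. LCR69 rose by 2.09 ± 0.15 and LCR68 by 1.03 ± 0.08, both from bright levels at 23 °C. TINY2, a factor of the DREB family, rose by 2.69 ± 0.25 and HYH, a bZIP factor related to the light regulator HY5, by 2.82 ± 0.22.

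Genes of redox control and detoxification moved in both directions. GSTU25, a tau-class glutathione transferase, was at 9.55, 9.996 and 10.08 in ozs3 roots at 4 °C, against 5.69, 5.98 and 6.47 at 23 °C (difference 3.83 ± 0.38, adjusted p = 1.72e-06), and GSTU22 at 10.16, 10.19 and 10.81 in ozs3 roots at 4 °C, against 7.15, 7.22 and 8.05 at 23 °C (difference 2.91 ± 0.32). In the family as a whole 3 of 14 members rose and 6 fell, the family's median being −0.23: GSTU28 fell by 1.35 ± 0.18 and GSTU26 by 0.72 ± 0.12. MSRB5, which repairs oxidised methionine, was at 8.02, 8.19 and 8.48 in ozs3 roots at 4 °C, against 10.98, 11.08 and 10.77 at 23 °C and had the largest fall of any gene with a symbol other than HIS1-3 (difference −2.71 ± 0.16, adjusted p = 1.58e-08). Its relative MSRB9 fell by 0.73 ± 0.14, and the other 3 methionine sulfoxide reductase genes measured were not called (1 rose with 1 common median). In the list of 19 ascorbate, glutathione and thiol genes 5 rose and 4 fell, shares near those over all named genes. GR1, a glutathione reductase, rose by 1.22 ± 0.10 and the plastid thioredoxin reductase gene NTRC by 0.87 ± 0.09, while SRX, the sulfiredoxin that restores overoxidised peroxiredoxin, fell by 1.89 ± 0.13 and the plastid thioredoxin gene THX by 0.66 ± 0.08.

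Of 4 genes for external NAD(P)H dehydrogenases 3 rose and 1 fell. NDB2 and NDB4 encode dehydrogenases on the outer face of the inner mitochondrial membrane that oxidise cytosolic NADH or NADPH without pumping protons. NDB2 was at 10.71, 10.73 and 10.88 in ozs3 roots at 4 °C, against 8.30, 8.10 and 8.56 at 23 °C (difference 2.45 ± 0.12, adjusted p = 5.68e-09) and NDB4 at 7.55, 7.67 and 7.48 in ozs3 roots at 4 °C, against 5.37, 5.45 and 5.32 at 23 °C (difference 2.19 ± 0.09, adjusted p = 2.1e-09). NDB3 rose by 0.30 ± 0.09, and NDB1 fell by 0.32 ± 0.11, a call that ended without replicate 1 or 3 at 23 °C or replicate 2 at 4 °C (adjusted p = 0.0719, 0.0927 and 0.146) and with 1 common median (0.189). Without replicate 3 at 23 °C the NDB1 difference was −0.28. Of 10 isocitrate and succinate dehydrogenase genes of the citric acid cycle 5 rose, among them IDH-VI (0.79 ± 0.10) and SDH1-1 (0.64 ± 0.07), and 2 fell (1 with 1 common median, or without replicate 2 or 3 at 23 °C or replicate 1 or 3 at 4 °C). Transcripts encoded in the mitochondrion itself included 5 of 16 that rose, a share near that over all named genes, and none that fell. Only 3 rose without replicate 1 or without replicate 2 at 23 °C, and 1 fell without replicate 2 at 23 °C or replicate 2 or 3 at 4 °C. The clearest was cox1, a subunit of cytochrome c oxidase, at 8.40, 8.26 and 8.25 in ozs3 roots at 4 °C, against 7.02, 6.995 and 7.37 at 23 °C (difference 1.17 ± 0.11).

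Several cell wall genes rose strongly. Expansins loosen walls by a non-enzymatic action on cellulose and xyloglucan contacts, and 12 of the 19 measured rose while 4 fell, against 23.3% and 25.3% over all named genes. All 3 expansin-like A genes rose at least 4-fold. EXLA2 was at 9.18, 9.01 and 8.81 in ozs3 roots at 4 °C, against 5.51, 5.48 and 5.81 at 23 °C (difference 3.40 ± 0.13, adjusted p = 1.51e-09), EXLA3 rose by 2.76 ± 0.20 and EXLA1 by 2.52 ± 0.14, and the related EXLB1 by 1.27 ± 0.14. EXPA4, an alpha-expansin, fell by 1.25 ± 0.15, as did the root hair expansin gene EXPA18 (−0.65 ± 0.16). Of 10 xyloglucan endotransglucosylase genes, whose products cut and rejoin xyloglucan, 5 rose and 3 fell. XTH20 was at 12.50, 12.49 and 12.55 in ozs3 roots at 4 °C, against 10.21, 9.68 and 10.23 at 23 °C (difference 2.47 ± 0.15), XTH32 rose by 2.102 ± 0.18 and XTH19 by 1.49 ± 0.12. XTH26, a root hair gene, moved the opposite way, at 6.36, 5.84 and 6.75 in ozs3 roots at 4 °C, against 7.87, 7.89 and 8.69 at 23 °C (difference −1.83 ± 0.26, adjusted p = 4.54e-05).

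Of 14 cellulose synthase-like and xylan genes 6 rose and 1 fell. None fell with 1 common median, or without replicate 1 or 2 at 23 °C or any 1 cold array. CSLC04, which makes the glucan backbone of xyloglucan, rose by 1.70 ± 0.09, COB, needed for oriented cellulose deposition in root cells, by 1.097 ± 0.09, and CSLD2 by 0.89 ± 0.09. Of 15 GH9 endoglucanase genes 6 rose (11 with 1 common median), among them GH9C2 (0.89 ± 0.08), and 1 fell, GH9B13, which was at 7.27, 7.23 and 7.17 in ozs3 roots at 4 °C, against 9.80, 9.54 and 8.90 at 23 °C (difference −2.19 ± 0.22). The trichome birefringence-like family, several members of which add acetyl groups to wall polysaccharides, had 3 of 23 members up and 7 down (5 up without replicate 2 at 4 °C and 7 with 1 common median). The share that fell was near that over all named genes. TBL36 was at 7.86, 8.23 and 7.85 in ozs3 roots at 4 °C, against 10.54, 10.74 and 10.41 at 23 °C (difference −2.58 ± 0.12), and TBL45 rose by 1.37 ± 0.11.

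Phenylpropanoid genes, which supply lignin monomers and coumarins, included 6 of 9 members that rose and none that fell (1 fell without replicate 2 at 23 °C), with a median of 0.64. CCR2, a cinnamoyl-CoA reductase of the lignin branch, was at 9.82, 9.98 and 9.58 in ozs3 roots at 4 °C, against 8.13, 8.08 and 8.32 at 23 °C (difference 1.62 ± 0.14), LAC16, a laccase, rose by 1.68 ± 0.14, and AT3G13610, annotated as F6'H1 of coumarin synthesis, by 0.64 ± 0.09 from a level of 12.68. CCOAMT, a methyltransferase of lignin synthesis, was at 8.11, 8.49 and 7.83 in ozs3 roots at 4 °C, against 7.33, 7.01 and 6.90 at 23 °C (difference 1.06 ± 0.22, adjusted p = 0.00115). In the flavonoid list 4 of 7 members rose and none fell, 7 rose with 1 common median, and 4 of the 7 were dim in both groups. UGT78D2, which puts glucose on flavonols and anthocyanidins, was at 10.21, 10.16 and 9.996 in ozs3 roots at 4 °C, against 7.09, 6.69 and 7.18 at 23 °C (difference 3.13 ± 0.12, adjusted p = 1.61e-09). CHIL, which helps chalcone synthase make the right product, rose by 1.70 ± 0.36. UDP-glycosyltransferases as a family, which attach sugars to hormones and secondary metabolites, had 20 of 47 members up and 4 down, with a median of 0.17. UGT74D1 rose by 1.59 ± 0.12 and UGT72E3 by 1.18 ± 0.11, while UGT71C1 fell by 1.98 ± 0.10.

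Genes of ER bodies and jacalin lectins included 4 of 7 that fell and 1 that rose, where ER bodies are endoplasmic reticulum compartments that hold beta-glucosidases for defence. NAI2, a protein of the ER body itself, was at 10.78, 10.86 and 10.92 in ozs3 roots at 4 °C, against 11.44, 11.72 and 11.73 at 23 °C (difference −0.78 ± 0.11), JAL22 fell by 1.77 ± 0.48 and JAL33 by 1.16 ± 0.25, while the regulator gene NAI1 rose by 0.70 ± 0.17 and PYK10, the main ER body beta-glucosidase, was not called (−0.26 ± 0.17). Other beta-glucosidase genes split, with BGLU25 up by 2.12 ± 0.12 and BGLU44 down by 1.73 ± 0.21. Among the cytochrome P450 genes of the CYP71B family 5 of 18 fell, a share near that over all named genes, and 2 rose. Of the 18 genes 10 were dim in both groups, 5 rose with 1 common median, and 1 rose without any single 23 °C array of ozs3 or without its replicate 1 or 2 at 4 °C or replicate 1 of either Col-0 group. Those that fell included CYP71B37, at 6.01, 6.42 and 6.22 in ozs3 roots at 4 °C, against 8.23, 8.29 and 8.40 at 23 °C (difference −2.09 ± 0.14) and CYP71B26 at −1.87 ± 0.12. Of the WRKY factor genes, WRKY22 and WRKY53 are both active in defence and senescence. WRKY22 fell to 7.50 ± 0.22 at 4 °C, against 8.60 ± 0.02 at 23 °C (SD, n = 3 each), WRKY53 fell by 0.74 ± 0.13, and WRKY6 rose by 1.77 ± 0.14.

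Carbohydrate transport and storage genes moved as follows. SWEET proteins let sugars across membranes down their gradient, and of 14 genes 4 rose, a share near that over all named genes, and none fell. With 1 common median 9 rose, and 7 of the 14 were dim in both groups. SWEET13 was at 7.49, 8.01 and 7.65 in ozs3 roots at 4 °C, against 6.43, 6.22 and 6.42 at 23 °C (difference 1.36 ± 0.12), SWEET2, which keeps glucose in root vacuoles, rose by 1.16 ± 0.17 and SWEET1 by 1.06 ± 0.13. TMT1, which loads glucose into the vacuole, rose by 0.72 ± 0.11 and SFP1, of the ERD6-like sugar transporter family, fell by 0.92 ± 0.11. Among 9 starch and sucrose genes 4 fell and 1 rose (2 without replicate 3 at 4 °C and 4 with 1 common median). ATSPS4F, a sucrose phosphate synthase, was at 5.69, 5.65 and 5.01 in ozs3 roots at 4 °C, against 3.85, 4.34 and 4.134 at 23 °C, dim on every control array (difference 1.34 ± 0.18). DPE1, which recycles maltotriose from starch breakdown, was at 6.15, 5.90 and 5.01 in ozs3 roots at 4 °C, against 7.37, 7.52 and 7.23 at 23 °C (difference −1.68 ± 0.22), and QQS, an Arabidopsis gene linked to starch content, at 7.80, 6.65 and 6.14 in ozs3 roots at 4 °C, against 9.68, 8.73 and 9.16 at 23 °C (difference −2.33 ± 0.43, adjusted p = 0.000399).

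Of 9 genes for the breakdown of branched-chain amino acids and lysine 5 fell and none rose, with a median of −0.41 (−0.27 with 1 common median, where 2 members rose, and 1 rose without replicate 3 at 4 °C). AT4G33150, annotated as the bifunctional enzyme LKR/SDH that starts lysine breakdown, was at 7.70, 7.47 and 7.34 in ozs3 roots at 4 °C, against 9.36, 9.17 and 9.17 at 23 °C (difference −1.73 ± 0.14). MCCA and MCCB, the subunits of methylcrotonyl-CoA carboxylase in leucine breakdown, fell by 0.96 ± 0.11 and 1.07 ± 0.13. ACLB-1, a subunit of ATP-citrate lyase, which makes cytosolic acetyl-CoA, fell by 0.73 ± 0.10.

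Of 11 autophagy genes 8 fell and 1 rose, with a median of −0.51, and 6 fell with 1 common median and 6 without replicate 3 at 23 °C. The ATG8 proteins coat the autophagosome membrane, and ATG8B was at 6.80, 7.29 and 7.28 in ozs3 roots at 4 °C, against 8.39, 8.55 and 8.67 at 23 °C (difference −1.41 ± 0.16), with ATG8C at −0.88 ± 0.11 and APG8H at −0.69 ± 0.09. AT5G66930, annotated as ATG101 of the initiation complex, fell by 0.76 ± 0.09. The vacuolar processing enzyme genes, proteases that mature vacuolar proteins, split, with ALPHA-VPE at −1.39 ± 0.14, GAMMA-VPE at −0.57 ± 0.11 and BETA-VPE at 0.45 ± 0.09. Ubiquitin-specific proteases, which remove ubiquitin, had 7 of 12 members up and 1 down (none down with 1 common median), at a median difference of 0.36, UBP19 at 0.91 ± 0.08 and UBP25 at 0.87 ± 0.09. Among plant U-box ubiquitin ligases PUB19 was at 9.67, 9.66 and 9.32 in ozs3 roots at 4 °C, against 6.99, 6.74 and 7.19 at 23 °C (difference 2.58 ± 0.16), and PUB25 rose by 0.98 ± 0.14. UBC29, a ubiquitin-conjugating enzyme gene, rose by 1.103 ± 0.09 and UBC22 fell by 0.98 ± 0.08, within a list of 11 in which 4 rose and 4 fell. Over all named genes 23.3% rose and 25.3% fell.

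**Figure D4:**
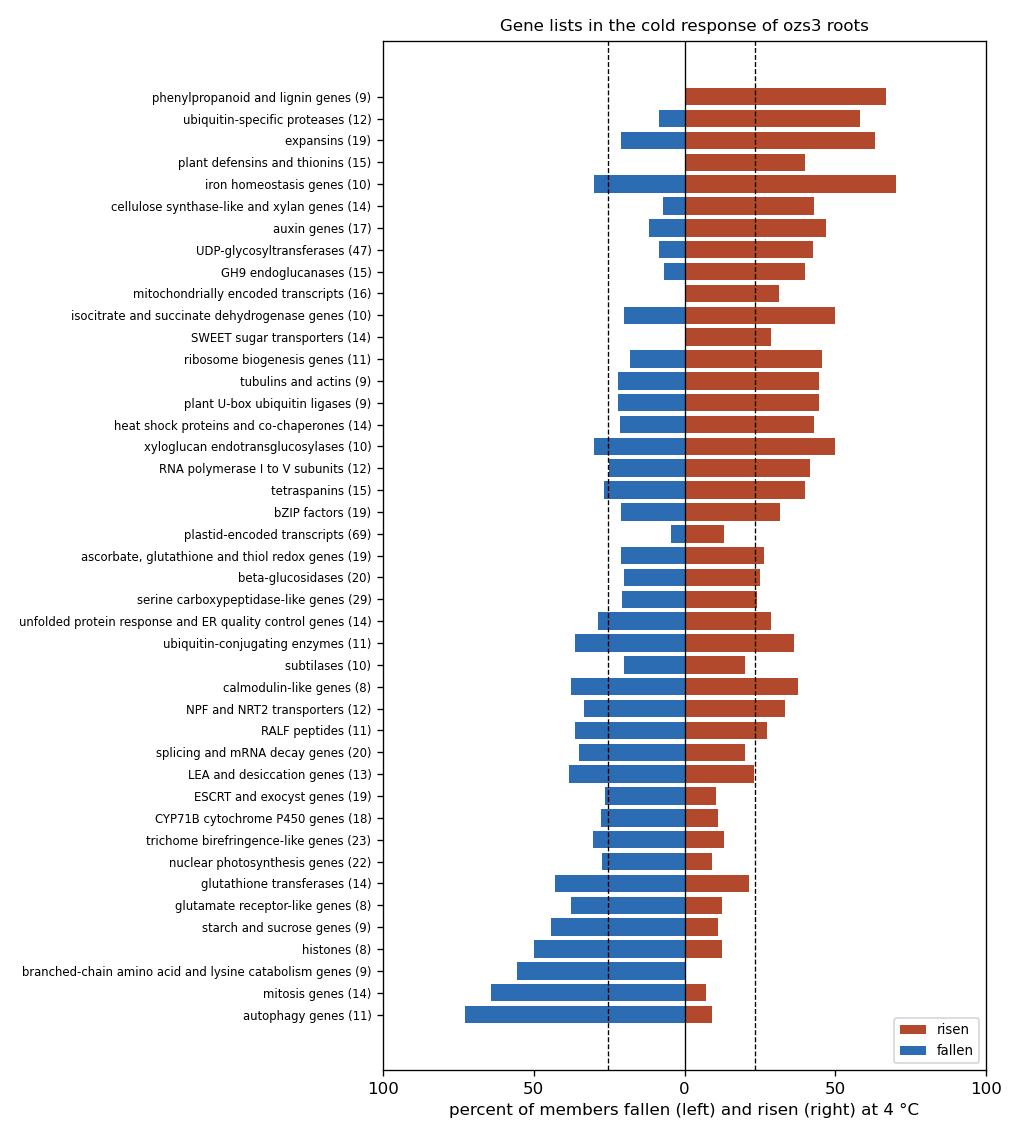
Percent of the measured members of each gene list that rose (right) and fell (left) in ozs3 roots at 4 °C against 23 °C, for lists with at least 8 members, with the number of members in brackets. Dashed lines give the shares over all named genes, 23.3% risen and 25.3% fallen, and iron homeostasis genes and phenylpropanoid genes reach furthest to the right while autophagy and mitosis genes reach furthest to the left.

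Chaperone genes gave a mixed picture. Hop3, which links Hsp70 to Hsp90, was at 5.10, 5.51 and 5.31 in ozs3 roots at 4 °C, against 7.23, 7.93 and 7.82 at 23 °C (difference −2.35 ± 0.23), while its relative Hop2 rose by 0.74 ± 0.08 and Hsp70-2 by 1.19 ± 0.13. SQN, a cyclophilin that works with Hsp90, rose by 0.77 ± 0.10. Of 14 such genes 6 rose and 3 fell, the falls being a share near that over all named genes. In the endoplasmic reticulum, BZIP60, a transcription factor of the unfolded protein response, was at 11.34, 11.52 and 11.55 in ozs3 roots at 4 °C, against 10.17, 10.24 and 10.58 at 23 °C (difference 1.14 ± 0.12). ATERDJ2A, of the protein import pore, rose by 0.65 ± 0.09, and DER2.1, of the derlin family for export of misfolded proteins, fell by 0.95 ± 0.12. The list of 14 unfolded protein response and quality control genes held 4 that rose and 4 that fell, shares near those over all named genes.

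Chromatin and cell division lists held more falls than rises, while over all named genes 25.3% fell and 23.3% rose. HIS1-3, a linker histone induced by drought, was at 4.15, 3.86 and 4.24 in ozs3 roots at 4 °C, against 6.91, 7.79 and 7.89 at 23 °C and dim in the cold (difference −3.45 ± 0.27, adjusted p = 1.76e-07). Of 8 histone genes 4 fell and 1 rose, with the linker histone gene HON4 at −0.74 ± 0.11, HTB4 at −0.57 ± 0.10 and HTB1, a histone H2B gene like HTB4, at 0.70 ± 0.09. Of 14 mitosis genes 9 fell and 1 rose, with a median of −0.37, against 7 that fell with 1 common median and 6 to 9 with each array left out. SIM, an inhibitor of cyclin-dependent kinases that turns cells to endoreduplication, was at 9.12, 9.10 and 8.84 in ozs3 roots at 4 °C, against 10.56, 10.61 and 10.75 at 23 °C (difference −1.62 ± 0.11, adjusted p = 4.34e-08), Haspin, a histone kinase of mitosis, fell by 0.51 ± 0.10, SAMBA, a regulator of the anaphase-promoting complex, by 0.35 ± 0.09, and KINESIN-13A, a kinesin known from trichome shape, rose by 0.53 ± 0.08. Tubulin genes split, with TUB9 up by 1.16 ± 0.08 and TUB1 down by 0.95 ± 0.18.

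In RNA metabolism, YAO, a nucleolar gene for ribosome assembly, rose by 1.45 ± 0.07, with levels of 9.79, 9.64 and 9.74 in ozs3 roots at 4 °C, against 8.26, 8.29 and 8.26 at 23 °C. NRPB7, a subunit of RNA polymerase II, rose by 0.99 ± 0.08 and NRPA1, the largest subunit of RNA polymerase I, by 0.58 ± 0.08, while NRPC1, its counterpart in RNA polymerase III, fell by 0.74 ± 0.15. Splicing and mRNA decay genes had 4 of 20 members up and 7 down (7 up with 1 common median), with ATU2AF35A, which recognises the 3′ splice site, at −1.07 ± 0.10, LSM3A at −0.66 ± 0.10, and Y14, of the exon junction complex, at 0.51 ± 0.08. Nuclear photosynthesis genes, which roots use little, had 6 of 22 members down, a share near that over all named genes. In the same list 2 were up (1 without any single ozs3 array other than replicate 2 at 4 °C) and 9 dim in both groups. The list median of −0.10 changed sign to 0.03 with 1 common median. CHLM, of chlorophyll synthesis, was at 7.07, 6.88 and 6.70 in ozs3 roots at 4 °C, against 8.73, 8.86 and 8.68 at 23 °C (difference −1.87 ± 0.10), and PSAN, a subunit of photosystem I, fell by 1.82 ± 0.24 into the dim range. Of 69 plastid-encoded transcripts 9 rose and 3 fell, shares below those over all named genes, and 24 rose with 1 common median, 5 rose without replicate 2 at 4 °C and 5 fell without replicate 1 at 23 °C.

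Hormone genes included GH3.1, of the family that conjugates auxin to amino acids, at 9.02, 8.31 and 8.36 in ozs3 roots at 4 °C, against 6.42, 6.003 and 6.04 at 23 °C (difference 2.41 ± 0.18, adjusted p = 1.14e-07). GH3.17 of the same family fell by 1.23 ± 0.09, and IAA33 rose by 0.74 ± 0.15. In all 8 of 17 auxin genes rose and 2 fell, with 6 of the 17 dim in both groups. Of the 3 gibberellin receptor genes GID1A and GID1C fell, by 0.52 ± 0.14 and 0.55 ± 0.09, and GID1B was not called (0.23 ± 0.10). For calcium signalling, CML37, a calmodulin-like sensor, was at 7.39, 7.59 and 7.21 in ozs3 roots at 4 °C, against 4.83, 4.91 and 5.51 at 23 °C (difference 2.32 ± 0.22, adjusted p = 1.15e-06), CML23 rose by 0.72 ± 0.18, and CML43 fell by 1.04 ± 0.10. Of 11 RALF genes, which encode secreted peptide hormones, 3 rose and 4 fell, 5 rose with 1 common median, and 1 rose without replicate 1 at 23 °C or without replicate 3 at 4 °C. The share that rose was near that over all named genes. RALFL32 fell by 0.89 ± 0.08 and RALFL27 by 0.91 ± 0.19. The bZIP factor list had 6 of 19 up (10 with 1 common median) and 4 down, shares near those over all named genes. It held bZIP44, at 11.54, 11.22 and 11.58 in ozs3 roots at 4 °C, against 9.82, 9.76 and 9.82 at 23 °C (difference 1.65 ± 0.10), and bZIP58 (1.204 ± 0.15), besides HYH and EEL given above.

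Metal homeostasis is of interest in a line named for zinc sensitivity. Of 6 zinc genes 1 rose and 3 fell (2 with 1 common median). ZIP9, of the zinc uptake family, was at 7.70, 7.27 and 7.69 in ozs3 roots at 4 °C, against 9.15, 9.01 and 8.90 at 23 °C (difference −1.47 ± 0.18, adjusted p = 1.19e-05), ZIP6 fell by 0.53 ± 0.14, and bZIP19, the regulator of the zinc deficiency response, rose by 0.64 ± 0.11. MTPA1 and MTP11, of the metal tolerance protein family, were not called (−0.05 ± 0.46 and −0.01 ± 0.09). The metallothionein gene MT1C, among the brightest genes on the array, was called at −0.37 ± 0.09, and not with 1 common median. Of 10 iron homeostasis genes 7 rose and 3 fell. LPR1, a multicopper ferroxidase that acts in root growth under low phosphate, was at 7.86, 7.69 and 7.07 in ozs3 roots at 4 °C, against 5.11, 5.04 and 5.11 at 23 °C (difference 2.45 ± 0.18, adjusted p = 8.85e-08), and LPR2 rose by 1.55 ± 0.14. Of the bHLH regulators of the iron deficiency response bHLH121 fell by 1.12 ± 0.09 and ILR3 by 0.93 ± 0.08. Among nitrate and peptide transporter family genes GTR1 rose by 0.80 ± 0.12 and GTR2 fell by 0.68 ± 0.08, both transporters of glucosinolates.

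The largest falls among genes known only by a locus code were AT2G25590, at 5.08, 5.57 and 5.19 in ozs3 roots at 4 °C, against 9.36, 9.35 and 9.12 at 23 °C (difference −3.996 ± 0.12, adjusted p = 3.93e-10), AT4G00670 (−3.28 ± 0.15), AT1G67910 (−3.24 ± 0.14) and AT4G29890 (−3.09 ± 0.13). AT5G61590, annotated as DEWAX, a repressor of wax synthesis, was at 7.87, 8.24 and 7.74 in ozs3 roots at 4 °C, against 10.43, 10.71 and 10.57 at 23 °C (difference −2.62 ± 0.13). In all of these the cold arrays lay below every control array, as they did in 27.5% of the named genes, against 28.9% with all cold arrays above. Among other genes with a symbol, OASA2, a cysteine synthesis gene, fell by 2.16 ± 0.13, ATMPK13, a MAP kinase gene, by 2.102 ± 0.24, and AGL79, a MADS-box gene, by 2.03 ± 0.15.

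The same treatment of Col-0 tells how much of this was shared, and the test is that of the difference between both cold responses in the same limma model. In Col-0 41% of the named genes were called, 18.1% higher and 22.9% lower at 4 °C. Over all probe sets 10.1% passed the test of the difference. Of the 13355 named genes 1260 (9.43%) responded differently, 531 with a more positive response in ozs3 (3.98%) and 729 with a more negative one (5.46%). For 6 of 6 cold-regulated genes this test did not pass, and Col-0 rose by 5.64 ± 0.46 in COR15A and 3.92 ± 0.40 in LTI30, so that the response of ozs3 minus that of Col-0 was −0.23 ± 0.65 and −1.58 ± 0.57 (adjusted p = 0.855 and 0.0954). A test that does not pass does not show equal responses, and the ozs3 controls include the raised replicate 3. With each array left out in turn the difference ran from −0.63 to 0.55 for COR15A and from −2.10 to −1.01 for LTI30. For COR15B it ran from 0.46 to 1.26 and for COR27 from 0.53 to 1.17, against 0.76 in both with all arrays. Among genes that rose in ozs3, 203 were not called in Col-0 and passed the test of the difference, and 40 had fallen in Col-0. Among genes that fell in ozs3, 270 were not called in Col-0 and passed it, and 47 had risen in Col-0. A further 1142 risen and 680 fallen genes were called in ozs3 and not in Col-0 without passing, so no difference was shown for them. After shifting every array to 1 common median 63.8% of the genes that passed had the more positive response in ozs3, against 42.1% as deposited, and the median over all named genes was 0.12, against 0.04. The number that passed was 782 without ozs3 replicate 1 at 23 °C and 814 without replicate 2, and the more positive responses were 343 without Col-0 replicate 1 at 4 °C.

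The widest gap was an opposite response, that of AT2G41730. It was at 10.78, 10.67 and 10.56 in ozs3 roots at 4 °C, against 8.26, 7.66 and 8.24 at 23 °C, and Col-0 had 7.56, 6.95 and 7.41 at 4 °C, against 10.12, 8.89 and 10.98 at 23 °C (difference of the responses 5.31 ± 0.52, adjusted p = 0.000145). For AT1G10875 ozs3 rose by 1.78 ± 0.36 while the Col-0 difference was −1.66 ± 0.36 (difference of the responses 3.44 ± 0.50). At 23 °C this gene was at 6.45, 5.76 and 7.74 in Col-0, against 4.11, 4.11 and 4.43 in ozs3. Other opposite responses were those of AT3G55790 (3.299 ± 0.64), AT2G21640 (2.73 ± 0.35), AT2G22880 (2.45 ± 0.23) and AT4G33666 (2.27 ± 0.37), each given as the response of ozs3 minus that of Col-0. At 23 °C AT2G21640 was at 7.51, 6.61 and 7.90 in Col-0, against 6.17, 6.04 and 6.27 in ozs3. AT2G04050 rose in ozs3 by 2.61 ± 0.55 and was not called in Col-0 (−0.68 ± 0.55, difference of the responses 3.29 ± 0.77). In Col-0 it was at 4.49, 4.73 and 5.05 at 4 °C, against 4.46, 4.72 and 7.11 at 23 °C, so replicate 3 alone made the Col-0 value negative. With each array left out its difference of the responses ran from 2.45 to 3.78. AT2G32020 was one of the 20 largest rises in ozs3, at 11.36, 11.42 and 11.37 in ozs3 roots at 4 °C, against 7.81, 7.34 and 8.24 at 23 °C, and was not called in Col-0, where it was at 9.61, 9.62 and 9.05 at 4 °C, against 8.55, 7.99 and 9.46 at 23 °C (difference of the responses 2.83 ± 0.42, adjusted p = 0.00164). AT3G48450 did not move in step either: it was not called in ozs3 (0.09 ± 0.19) and fell in Col-0 by 2.77 ± 0.19 (difference of the responses 2.86 ± 0.26).

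Several genes given above belong here. NDB4 rose by 2.19 ± 0.09 in ozs3, against 0.58 ± 0.09 in Col-0 (difference of the responses 1.60 ± 0.13, adjusted p = 9.21e-05), while NDB2 rose by 2.45 ± 0.12 in ozs3, against 2.64 ± 0.12 in Col-0, and was not called for the difference (−0.19 ± 0.18). CML37 rose by 2.32 ± 0.22 in ozs3, against an uncalled difference of 0.51 ± 0.22 in Col-0 (difference 1.81 ± 0.31). CCOAMT rose by 1.06 ± 0.22 in ozs3 and had a difference of −0.91 ± 0.22 in Col-0 (1.97 ± 0.31). BZIP60 (0.91 ± 0.17), bZIP58 (1.11 ± 0.21), WRKY6 (1.05 ± 0.19), CCR2 (0.83 ± 0.19), SWEET13 (0.82 ± 0.17) and CSLC04 (0.57 ± 0.13) also had a more positive response in ozs3, with the response of ozs3 minus that of Col-0 in brackets. GAT1_2.1, a glutamine amidotransferase gene, rose by 2.35 ± 0.23 in ozs3, against 0.68 ± 0.23 in Col-0 (1.67 ± 0.32).

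On the lower side MSRB5 had the widest gap: it fell by 2.71 ± 0.16 in ozs3, against a difference of −0.83 ± 0.16 in Col-0 (difference of the responses −1.88 ± 0.22, adjusted p = 0.00045). AT3G32030 fell by 1.56 ± 0.18 in ozs3 and was not called in Col-0 (0.26 ± 0.18, difference of the responses −1.82 ± 0.25), and AT1G54730 fell by 1.53 ± 0.12, against −0.05 ± 0.12 (−1.47 ± 0.17). AT3G29410 fell in both, by 2.92 ± 0.18 in ozs3 and by 1.39 ± 0.18 in Col-0 (−1.52 ± 0.25). NAI2 fell by 0.78 ± 0.11 in ozs3, against a difference of 0.17 ± 0.11 in Col-0 (−0.95 ± 0.16), GSTU26 by 0.72 ± 0.12, against 0.24 ± 0.12 in Col-0 (−0.96 ± 0.17), and RALFL27 by 0.91 ± 0.19, against 0.29 ± 0.19 in Col-0 (−1.201 ± 0.26). In these 3 genes the Col-0 difference was above 0 and was not called. AT4G33150, the lysine breakdown gene, also fell further in ozs3 than in Col-0 (−1.13 ± 0.19), as did CYP71B26 (−1.19 ± 0.18) and CYP71B37 (−1.07 ± 0.19), while the autophagy gene AT5G66930 fell less (0.55 ± 0.13). Of genes given earlier, GSTU25 (1.94), LEA4-5 (1.01), PUB19 (0.90) and EXLA2 (0.74) were also called for a more positive response in ozs3, as were SWEET2, ZIP9, bZIP44 and UBP25. CHLM, SIM, MTP11 and AT4G29890 were called for a more negative one. These 12 calls were each lost without at least 1 array. AT2G25590 fell further in ozs3 than in Col-0 (−1.23 ± 0.17). Apart from the 12, each difference between responses in the last 3 paragraphs that passed the test passed it with any single array left out.

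**Figure D5:**
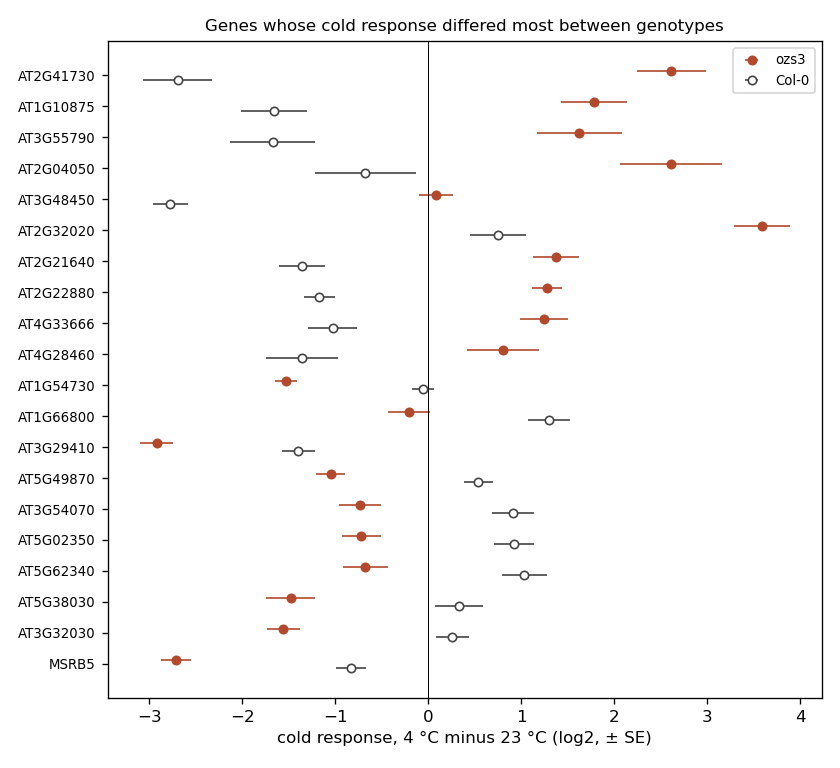
Cold response (log2, 4 °C minus 23 °C) of ozs3 roots as filled circles and of Col-0 roots as open circles, with the standard error from limma as bars, for the 10 named genes with the most positive and the 10 with the most negative difference between both responses. AT2G41730 lies at 2.62 in ozs3 and −2.69 in Col-0, and MSRB5 at −2.71 and −0.83.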

How the data were processed

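The deposited values are log2 intensities of probe sets, for which the submitters' processing notes name RMA, a method that corrects background, normalizes between arrays and summarises the probes of a set. No version is given. The log2 scale was read from the values, which ran from 2.91 to 15.04 over the probe sets tested. The precision is limited by the number of arrays. Of 22810 probe sets 64 controls were left out and 22746 were tested, and each gene is given by its brightest probe set, as averaged over the 12 arrays. In 4 genes another probe set was called the opposite way, and none of them is named here. A group-means model over all 12 arrays was fitted by lmFit and eBayes of limma (version 3.58.1, R version 4.3.3). It had 8 residual degrees of freedom, and p-values were adjusted by Benjamini-Hochberg over all probe sets. The method was tested on simulated data with independent noise and few changed probe sets, a simpler setting than that of these arrays. Replicates are separate biological samples per the labels.

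The genes named are the 20 largest rises and falls, the 10 largest differences between genotypes each way, the 10 risen genes highest in replicate 3, and up to 4 called members per list with the smallest adjusted p (all members of lists of 8 or fewer). The 25 largest rises and falls among genes with a symbol, and single further members of short lists, were added after the values were seen, and the text describes a selection of all these. Members and lists were chosen with earlier results of these data known. List membership was set by hand from the symbols and older names that RefSeq's table for TAIR10.1 holds, and 7 members whose locus encodes another protein than the list names were removed after the values were seen.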

Additional observations from a re-analysis of the deposited data

Results flagged for a closer look

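For the genes listed here the cold response of ozs3 roots differed from that of Col-0 roots in limma's test of the difference, with p adjusted by Benjamini-Hochberg over all probe sets, and the values follow. The log2 response of ozs3 minus that of Col-0 was 5.31 ± 0.52 (SE) for AT2G41730, 3.44 ± 0.50 for AT1G10875, 3.299 ± 0.64 for AT3G55790, 3.29 ± 0.77 for AT2G04050, 2.86 ± 0.26 for AT3G48450, 2.83 ± 0.42 for AT2G32020, 2.73 ± 0.35 for AT2G21640, 2.45 ± 0.23 for AT2G22880 and 2.27 ± 0.37 for AT4G33666. It was 1.97 ± 0.31 for the lignin gene CCOAMT, 0.83 ± 0.19 for CCR2, 1.81 ± 0.31 for the calcium sensor gene CML37, 1.60 ± 0.13 for NDB4 of the mitochondrial electron chain, 1.67 ± 0.32 for GAT1_2.1, 0.82 ± 0.17 for SWEET13 and 0.57 ± 0.13 for CSLC04. Among factor genes it was 0.91 ± 0.17 for BZIP60, 1.11 ± 0.21 for bZIP58 and 1.05 ± 0.19 for WRKY6. It was 0.55 ± 0.13 for AT5G66930, which fell in both genotypes, and 1.91 ± 0.36 for AT5G64120, given below.

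Negative differences, with the lower response in ozs3, were −1.88 ± 0.22 for MSRB5, −1.82 ± 0.25 for AT3G32030, −1.52 ± 0.25 for AT3G29410, −1.47 ± 0.17 for AT1G54730, −1.201 ± 0.26 for RALFL27 and −1.13 ± 0.19 for AT4G33150. They were −1.19 ± 0.18 for CYP71B26, −1.07 ± 0.19 for CYP71B37, −0.95 ± 0.16 for NAI2 and −0.96 ± 0.17 for GSTU26. Every one of these genes passed the test with any single array left out, but genes that did not are not listed here. Of 46 genes named in the text and called for the difference, 12 lost that call without at least 1 array.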

How the results depend on the processing

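Over all probe sets 11624 were called in the ozs3 cold response, 5674 higher and 5950 lower, and 2300 for the difference from Col-0, 977 with the more positive and 1323 with the more negative response in ozs3. Requiring a 2-fold change left 2560, 1122 and 1438, and 409, 241 and 168. With 1 common median 9272 were called higher in the cold, and 1642 had the more positive response in ozs3. A fit with a replicate block called 12512 in the cold and 3379 for the difference, 1472 of them more positive. Deviations of same-numbered ozs3 arrays correlated at 0.32, 0.08 and 0.31, and each array correlated best with its own number. Those of replicates 1 and 3 across temperatures correlated at −0.30 and −0.25. The main model did not take the numbers as pairs, and whether they mark a shared batch was not tested. With each array left out in turn the cold counts ran from 10272 to 11716, 4868 to 5715 higher and 5371 to 6001 lower, and those for the difference from 1439 to 2279, 588 to 947 more positive and 813 to 1332 more negative. The lowest were without ozs3 replicate 1 or 2 at 23 °C. Of the list members 230 were called higher and 178 lower, 343 and 146 with 1 common median, and 205 and 173 without ozs3 replicate 3 at 23 °C. An intensity trend, array weights, a repeated quantile normalization, the exclusion of dim probe sets and, for the cold response, the 6 ozs3 arrays alone kept the probe set counts within 1.5 times. Of 3756 comparisons of a named gene's cold response with an alternative, 3717 kept direction and side of the threshold, 18 lost a call and 21 gained a call, and none reversed. Many of these could not reverse, because the alternative changes the estimate of the spread and leaves the difference itself as it was. That holds without a Col-0 array, with the 6 ozs3 arrays alone, an intensity trend or a replicate block, and without dim probe sets. The count of genes standing 1 unit above both other arrays, 17 in ozs3 replicate 3 at 23 °C, was 2 and 1 in the other ozs3 controls, 3, 6 and 0 in ozs3 at 4 °C, 1, 4 and 4 in Col-0 at 4 °C, and 1, 5 and 15 in Col-0 at 23 °C. Levels near background limit what can be read: 4149 named genes were dim in both ozs3 groups.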

Other observations

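Smaller families held single members with clear changes. Of the class III peroxidase genes, which act on lignin and hydrogen peroxide in the wall, AT5G66390, annotated as PRX72, rose in ozs3 roots by 0.69 ± 0.11, AT2G41480, annotated as PRX25, fell by 1.53 ± 0.17, and AT5G64120, annotated as PRX71, was at 8.96, 9.31 and 8.89 in ozs3 roots at 4 °C, against 9.32, 9.28 and 8.90 at 23 °C and was not called (−0.11 ± 0.26). In Col-0 AT5G64120 was at 7.82, 8.41 and 7.32 at 4 °C, against 9.56, 10.42 and 9.65 at 23 °C (difference −2.03 ± 0.26, and 1.91 ± 0.36 between both responses, adjusted p = 0.00588). Serine carboxypeptidase-like genes, some of which acylate secondary metabolites, included scpl28, at 9.63, 9.37 and 9.29 in ozs3 roots at 4 °C, against 7.49, 7.15 and 7.37 at 23 °C (difference 2.097 ± 0.13), SCPL49 (0.70 ± 0.10) and scpl50 (−1.03 ± 0.13). Among the subtilases, secreted proteases, SBTI1.1 rose by 0.87 ± 0.10 and SBT3.12 fell by 0.55 ± 0.14. Tetraspanins, membrane proteins that organise other proteins, had TET8 and TET9 up by 0.57 ± 0.10 and 0.68 ± 0.18 and TET7 down by 0.58 ± 0.13. Of the glutamate receptor-like channel genes GLR1.4 fell by 1.04 ± 0.11, into the dim range, and GLR3.6 by 0.68 ± 0.11. VPS2.1, of the ESCRT machinery that sorts proteins to the vacuole, rose by 0.69 ± 0.09 and SEC5A, of the exocyst that tethers secretory vesicles, fell by 0.50 ± 0.12. The 6 cytokinin response regulator genes measured were dim in both groups. Of these 3 were called higher, between 0 and 3 with each array left out, 5 with 1 common median, and none without replicate 3 at 23 °C.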
